A study of Mus musculus with 16 samples.

Results

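The T cell identity genes described here are 10 genes whose products mark and run the T lymphocyte: Cd2, Cd3d, Cd3e, Cd3g, Cd4, Cd5, Cd8a, Cd28, Lck and Thy1. They were followed in the colon of mouse pups born by C-section delivery (CSD) or vaginal delivery (VD), and were found by the gene names of the array's design, in a list drawn up with earlier results of these data known. All 10 were found among the 36711 genes that passed the filter on dim probes, and all 10 were also present in the gene matrix deposited by the authors. Colon RNA of 16 RjOrl:SWISS pups, an outbred stock, was measured at weaning (3 weeks of age) with 1 Agilent array of 1 colour per pup. The 8 CSD pups were taken from the uterus by hysterectomy at the end of gestation and nursed by foster mothers, and the 8 VD pups were born vaginally and also nursed by a mother that was not their own, since VD litters were interchanged. The CSD pups came from the litters of mothers 3 and 4, with 2 females and 2 males from each, and the VD pups from the litters of mother 5 (2 females and 3 males) and mother 6 (3 males). No treatment other than the mode of delivery separated the groups in the labels, and no mother had pups in both, so delivery mode varied only between litters. Between 58.7% and 64.9% of the spots on an array lay well above background. Markers of the labelled tissue were present: 12 of 12 genes of the colon epithelium and 10 of 10 genes of neurons lay well above background on all 16 arrays, as did 9 of the 10 T cell identity genes.

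A T cell recognises antigen through the T cell receptor, whose variable chains carry no signalling part of their own and depend on the CD3 chains. When the receptor binds a peptide on an MHC molecule, the co-receptor CD4 or CD8 brings the kinase LCK to the CD3 chains, LCK phosphorylates them, and the signal runs on through further kinases and adaptors. CD2 and CD28 add adhesion and costimulation, CD5 dampens the signal, and THY1 is a surface glycoprotein that T cells share with some fibroblasts and neurons. In the colon such cells lie in the lamina propria, between epithelial cells and in lymphoid follicles.

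All 10 genes had a lower fitted level in CSD than in VD pups, with log2 fold changes (CSD minus VD, on normalized log2 intensities) from -0.77 for Cd2 to -0.10 for Cd4 and a median of -0.36. Over all genes tested, 48.3% had a lower fitted level in CSD pups, and their log2 fold changes had a median of 0.0029. None of the 10 genes passed the threshold of the study, an adjusted p under 0.05 in limma with sex as a fixed and the mother as a random effect, which 1.25% of all genes passed. Before adjustment, 5 of the 10 (Thy1, Cd2, Cd28, Cd4 and Cd5) had p under 0.05, against 7.09% of all genes that did so and were lower in CSD pups and 14.5% that did so in either direction. The counts of unadjusted p given for gene lists are in either direction. An exact permutation test, two-sided, on the difference of means over 12870 assignments of the pups and with no account of litter or sex, gave p under 0.05 for 6 of the 10, the same 5 genes and Cd3e. No share over all genes is given for the permutation test, so this count has no background to be set against.

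The groups overlapped for each of the 10 genes, while 0.496% of all genes had groups that did not overlap. The means of both CSD litters lay under those of both VD litters for 10 of the 10 genes, an order found for 20.3% of all genes. That order rested in part on 1 pup of mother 6: without VD pup 6 it held for 7 of the 10, and for 19.5% of all genes. With 2 litters per delivery mode there are 6 ways to assign the litters, so a permutation of the litters can give no p under 0.333. A limma fit on the 4 litter means, without sex, gave an unadjusted p under 0.05 for 8 of the 10 genes, Cd4 and Cd8a being the exceptions, and for 4034 of the 36711 genes in either direction. That fit called none of the 10, with the smallest adjusted p at 0.236 for Thy1, and 0 genes in all. The p-values by pup measure the spread between pups. In bulk tissue, fewer T cells, less of each RNA per T cell and a change in other cells that express the gene cannot be told apart. The same limit, for the cells that express a gene, holds for every level given here.

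**Figure D1:**
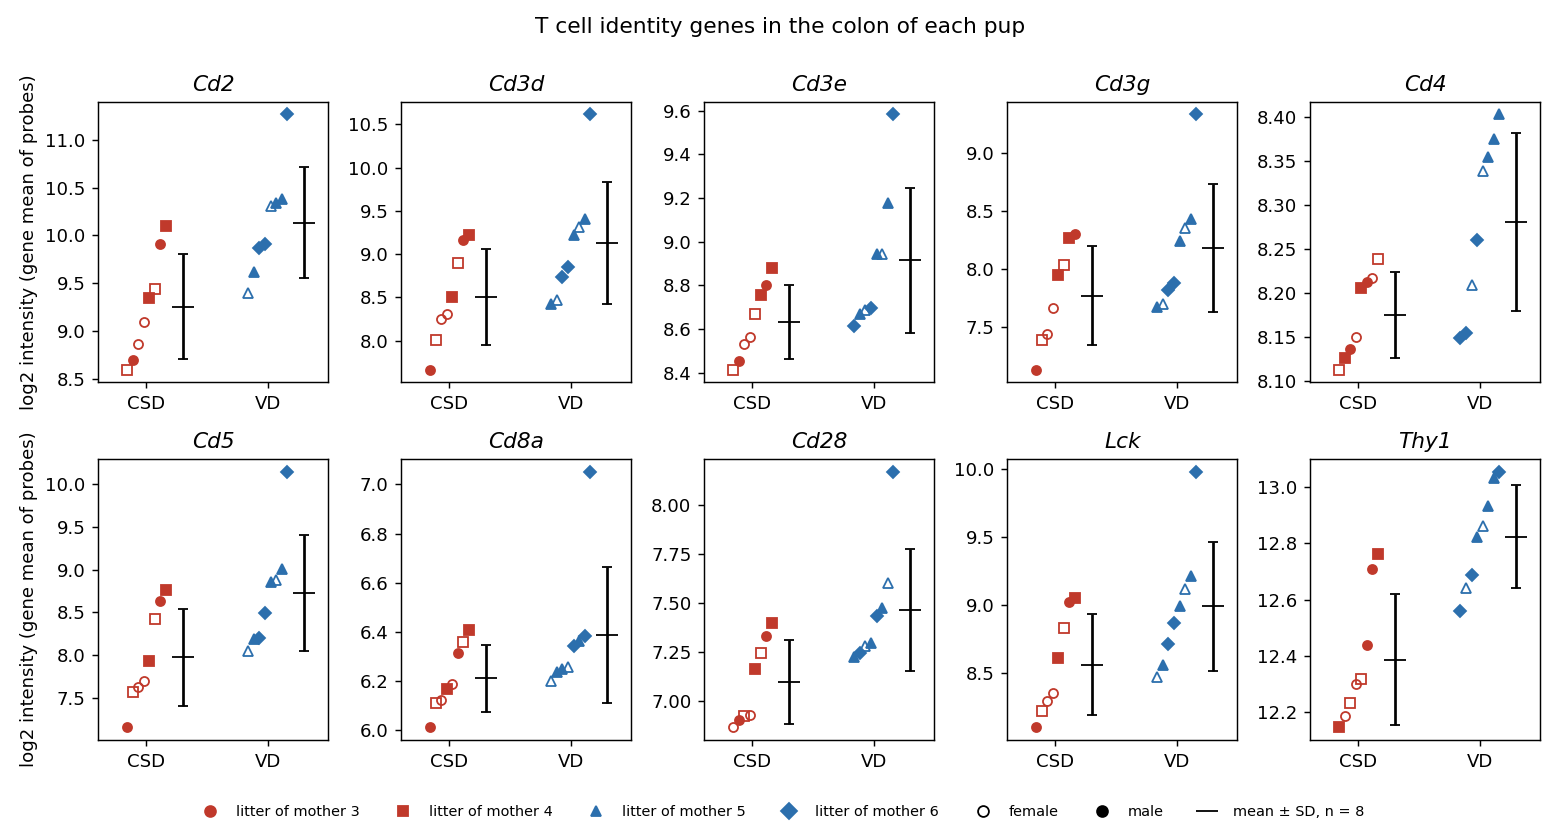
Log2 intensity of each gene (vertical axis, mean of the gene's probes) in the 8 CSD and 8 VD pups, with the litter as the symbol, open symbols for females, and the group mean ± SD beside the points. In each panel the CSD mean lies under the VD mean and the groups overlap, and the highest point of 9 of the 10 panels is the same VD pup of mother 6.

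The CD3 chains, which carry the receptor's signal into the cell, were lower in CSD pups by a fitted log2 value of -0.56 ± 0.31 (SE) for Cd3d, -0.24 ± 0.13 for Cd3e and -0.35 ± 0.24 for Cd3g. Cd3d had a log2 level between 7.67 and 9.22 in CSD pups, with a median of 8.41, and between 8.43 and 10.62 in VD pups, with a median of 9.03. The lowest 4 CSD pups lay under every VD pup, and 3 VD pups lay above every CSD pup. Cd3e ran from 8.41 to 8.88 in CSD pups (median 8.62) and from 8.61 to 9.58 in VD pups (median 8.82). Its value averages 2 probes, both above background on all 16 arrays, whose fitted log2 fold changes were -0.32 ± 0.17 and -0.17 ± 0.10 (SE). Cd3g ran from 7.13 to 8.30 in CSD pups (median 7.81) and from 7.68 to 9.34 in VD pups (median 8.06). For each of these genes 4 CSD pups lay under all VD pups, but the upper part of the CSD group reached into the VD group. None of these genes was called: the adjusted p in limma was 0.444 for Cd3d, 0.417 for Cd3e and 0.558 for Cd3g. The exact permutation p over pups was 0.062 for Cd3d, 0.040 for Cd3e and 0.12 for Cd3g.

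The probes behind these values lie within 29.4 kb of chromosome 9, at chr9:44777868-44807313 in mm9, the build of the scanner output. One Cd3d probe spans 232 bases of the genome with its 60 bases, so that it crosses an intron and reads spliced RNA. It is shown because it covers the signalling tail of the chain, and capitals mark the 2 codon runs that begin with tyrosine and end with leucine, the unit of an immunoreceptor tyrosine-based activation motif (ITAM), which LCK phosphorylates.
Cd3d probe (mm9 chr9:44794171-44794402, + strand): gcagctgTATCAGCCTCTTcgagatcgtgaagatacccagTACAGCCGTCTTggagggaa
On this probe the log2 level was 8.12 ± 0.56 in the CSD group and 8.73 ± 0.72 in the VD group (mean ± SD, n = 8 each), and the fitted log2 fold change was -0.54 ± 0.31 (SE). The other Cd3d probe, at the end of the transcript, gave -0.57 ± 0.30, a similar value on the same arrays.

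Cd3g and Cd3d lie head to head, on opposite strands, and their 250-base windows before the start site are 854 bases apart in RefSeq's promoter table (GRCm38.p6). They are shown because these genes moved together from pup to pup, with capitals on both strands for the E box (CANNTG), the site of E proteins, and the GATA core (AGATAA).
Cd3g upstream (GRCm38.p6 chr9:44980432-44980681, - strand): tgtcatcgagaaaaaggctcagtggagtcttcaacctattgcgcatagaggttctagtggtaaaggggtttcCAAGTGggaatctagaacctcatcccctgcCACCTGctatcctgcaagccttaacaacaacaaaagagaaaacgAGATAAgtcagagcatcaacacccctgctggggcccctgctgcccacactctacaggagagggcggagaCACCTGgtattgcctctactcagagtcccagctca
Cd3d upstream (GRCm38.p6 chr9:44981536-44981785, + strand): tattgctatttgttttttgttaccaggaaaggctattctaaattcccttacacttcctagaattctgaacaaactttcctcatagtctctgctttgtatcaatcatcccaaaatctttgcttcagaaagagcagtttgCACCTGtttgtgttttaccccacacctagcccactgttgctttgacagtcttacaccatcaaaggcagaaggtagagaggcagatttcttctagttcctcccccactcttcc
The table holds 7 windows for 6 of the 10 genes (Lck with 2, Cd8a, Cd3g, Cd3d, Cd3e and Cd5). An E box was found in 6 of these 7 windows and in 66.2% of the 32851 windows of this length in the table. The GATA core was found in 1 of the 7, that of Cd3g, and in 9.99% of all. The RUNX core (TGTGGT) was found in 1 of the 7, a window of Lck, and in 14% of all. These are matches of letters, and binding was not measured.

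Lck, the kinase that phosphorylates the CD3 chains, had a log2 level between 8.10 and 9.05 in CSD pups (median 8.48) and between 8.47 and 9.98 in VD pups (median 8.93). The lowest 4 CSD pups lay under all VD pups and the highest 3 VD pups above all CSD pups. Its fitted log2 fold change was -0.36 ± 0.20 (SE), with an adjusted p of 0.447. One of its probes lies in the coding part, in the stretch for the kinase domain, and reads as follows, with no part in capitals.
Lck probe (mm9 chr4:129229196-129229255, - strand): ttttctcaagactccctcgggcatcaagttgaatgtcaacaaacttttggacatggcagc
This probe gave -0.22 ± 0.14 (SE) and the probe at the transcript's end gave -0.51 ± 0.27, the same direction. Both were read on the same arrays, so these SEs, which measure the spread between pups, do not test whether the probes differ.

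Cd5, an inhibitory receptor that sets the threshold of T cell receptor signalling, ran from 7.15 to 8.76 in CSD pups, with a median of 7.81, and from 8.05 to 10.15 in VD pups, with a median of 8.68. Its fitted log2 fold change was -0.68 ± 0.31 (SE), with an exact permutation p of 0.025 and an adjusted p in limma of 0.318. Cd2, an adhesion receptor of lymphocytes that is not limited to T cells, had the largest fitted difference of the 10. It ran from 8.60 to 10.09 in CSD pups (median 9.22) and from 9.40 to 11.27 in VD pups (median 10.11). All 8 CSD pups lay under the VD median, 5 of them under every VD pup, and 4 VD pups lay above every CSD pup. The fitted log2 fold change of Cd2 was -0.77 ± 0.26 (SE), with a 95% confidence interval from -1.32 to -0.22, which is 1.70-fold lower in CSD pups. The exact permutation p was 0.0073 and the adjusted p in limma 0.162. Both probes of Cd2 gave -0.77, but they share 51 of their 60 bases and are not independent measures.

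Cd28, the costimulatory receptor for CD80 and CD86, had a log2 level between 6.86 and 7.40 in CSD pups (median 7.04) and between 7.22 and 8.17 in VD pups (median 7.36). Of the CSD pups, 5 of 8 lay under all VD pups, and 4 VD pups lay above all CSD pups. The fitted log2 fold change was -0.34 ± 0.13 (SE), with an exact permutation p of 0.0090 and an adjusted p of 0.229. That value averages 2 probes, of which 1 lay well above background on all 16 arrays and the other on 1 array, that of a VD pup. The probe above background gave -0.52 ± 0.18 (SE), with 6 CSD pups under all VD pups.

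The co-receptors behaved differently at the level of probes. Cd4, which binds MHC class II molecules, is measured by 3 probes, of which 1, at the transcript's end (mm9 chr6:124814711-124814770), lay well above background on all 16 arrays. On this probe the log2 level ran from 11.63 to 12.22 in CSD pups (median 11.85) and from 11.82 to 12.34 in VD pups (median 12.15). Of the CSD pups, 3 of 8 lay under all VD pups, and 2 VD pups lay above all CSD pups. The fitted log2 fold change was -0.28 ± 0.09 (SE), with an exact permutation p of 0.012 and an adjusted p over all probes in limma of 0.136. The other probes were at or near background: 1 was above background on 0 of the 16 arrays and gave -0.03 ± 0.05, and 1, shown next, was above it on 12 arrays and gave -0.0024 ± 0.065. The latter lies in the coding part, in the stretch for the last extracellular domain, and has no part in capitals.
Cd4 probe (mm9 chr6:124817706-124817765, - strand): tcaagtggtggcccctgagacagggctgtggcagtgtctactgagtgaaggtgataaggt
The gene value of Cd4 averages all 3 probes and was correspondingly small, -0.10 ± 0.04 (SE), with an adjusted p of 0.282. Over 38 alternatives of the processing or the samples it ran from -0.28 to -0.02. Its litter means were 8.18 and 8.17 for mothers 3 and 4 (CSD), against 8.34 for mother 5 and 8.19 for mother 6 (VD).

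Cd8a, which binds MHC class I molecules and marks cytotoxic T cells and many intraepithelial lymphocytes, was close to background. One probe, in the last part of the gene, was well above background in 4 of 8 CSD and 6 of 8 VD pups. The other, in the stretch that codes for the immunoglobulin-like domain, was above it in 0 CSD pups and 1 VD pup.
Cd8a probe (mm9 chr6:71323885-71323944, + strand): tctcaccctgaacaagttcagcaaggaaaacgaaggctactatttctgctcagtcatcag
The gene value ran from 6.01 to 6.41 in CSD pups (median 6.18) and from 6.20 to 7.05 in VD pups (median 6.30), and 1 VD pup, number 6, lay above all CSD pups. The fitted log2 value was -0.15 ± 0.11 (SE), with an adjusted p of 0.568, and no fold is read from probes that were dim in both groups. Its partner chain Cd8b1, named here after its values were seen, was above background on all 16 arrays, with a log2 level of 7.40 ± 0.47 in the CSD group and 8.28 ± 0.78 in the VD group (mean ± SD, n = 8 each) and a fitted log2 fold change of -0.79 ± 0.31 (SE) whose adjusted p was 0.232.

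Thy1 had the smallest p of the 10 genes. Its log2 level ran from 12.15 to 12.76 in CSD pups, with a median of 12.31, and from 12.56 to 13.05 in VD pups, with a median of 12.84. Of the CSD pups, 6 of 8 lay under every VD pup, and 5 VD pups lay above every CSD pup, the least overlap among the 10 genes. The fitted log2 fold change was -0.39 ± 0.10 (SE), which is 1.31-fold lower in CSD pups, with a 95% confidence interval from -0.59 to -0.18, an exact permutation p of 0.0023 and an adjusted p in limma of 0.062. Thy1 passed the threshold once CSD pup 6 (adjusted p 0.0482), VD pup 7 (0.0311) or VD pup 8 (0.0488) was left out, and its p did not pass when any other single pup was left out. It has 1 probe on the array, at mm9 chr9:43856591-43856650.

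**Figure D2:**
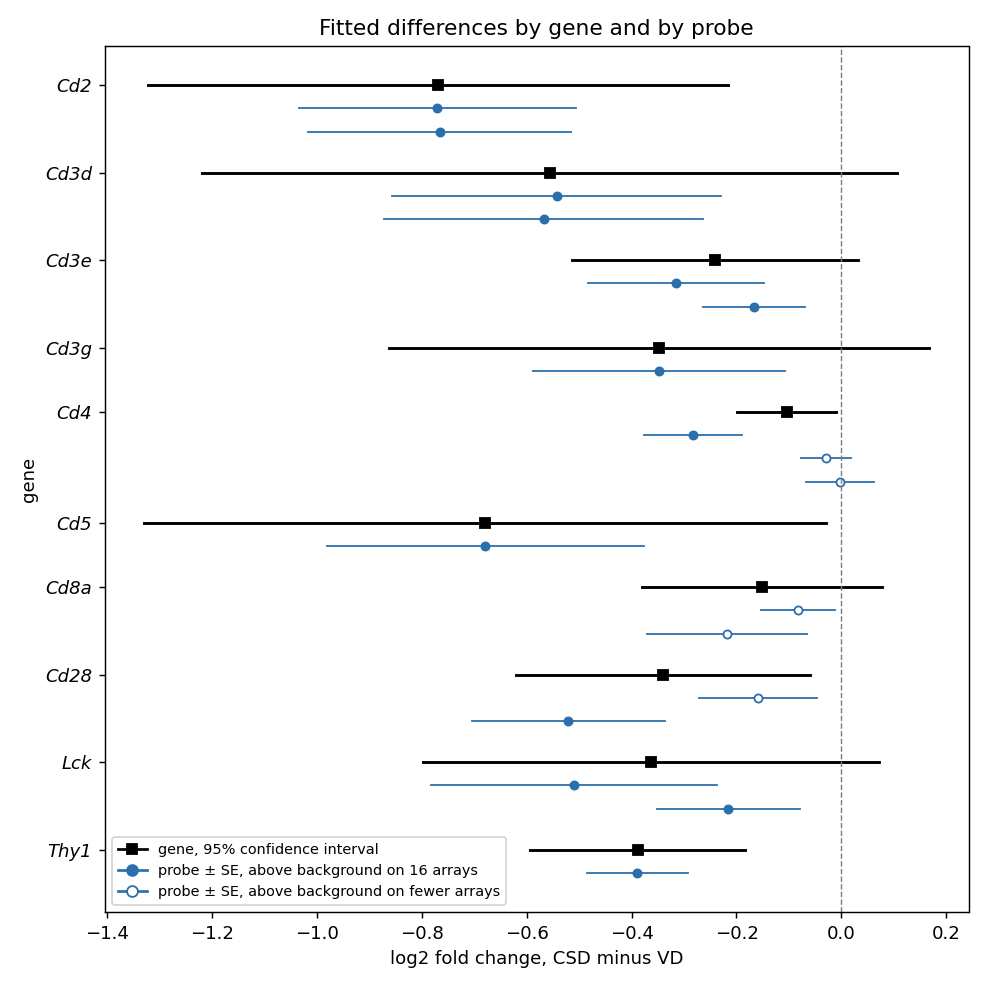
Fitted log2 fold change (horizontal axis, CSD minus VD) of the 10 genes as squares with 95% confidence intervals and of their 18 probes as circles ± SE, with open circles for probes not above background on all 16 arrays. The 18 probes all lie to the left of 0, and the open circles of Cd4 and Cd28 lie closer to 0 than the filled ones of the same gene.

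At the level of probes, 13 of the 18 were well above background on all 16 arrays. All 18 had a lower fitted level in CSD pups, 6 had an unadjusted p under 0.05, and 0 were called in the limma fit over all probes, which called 1.74% of 56366 probes. The Thy1 probe came closest, with an adjusted p of 0.051. The shares of all probes that were lower or had an unadjusted p under 0.05 are not given here. By gene these shares were 48.3% and, in either direction, 14.5%.

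The pups of a group differed widely, and in a way that most of the 10 genes shared. VD pup 6, a male of mother 6, was the highest of the 16 for 9 of the 10 genes, and its Cd3d log2 level of 10.62 stood 1.21 above the next pup. CSD pup 8, a male of mother 3, was the lowest for 5 genes, and CSD pup 2, a female of mother 4, was among the lowest 3 for 9. CSD pup 6, with a mean rank of 11.9 out of 16 over the 10 genes, and CSD pup 9, with 10.2, stood above VD pups 5, 7, 8 and 10. VD pup 6 and CSD pup 8 lay on different slides, and the arrays of VD pup 6 and CSD pup 8 had 64.3% and 64.2% of spots above background. The array of CSD pup 8 had 200 spots marked as outliers and that of CSD pup 7 had 205. The other arrays had between 65 and 107, with 89 for VD pup 6. Whether this bears on the levels of these pups was not tested. The litter mates of VD pup 6, VD pups 7 and 8, had means of the CD3 genes of 8.39 and 8.48, against 9.85 in VD pup 6. VD pup 6 also had the highest mean of the 16 pups for the T cell receptor signalling list, at 8.13 against 7.84 in VD pup 11, for lymphoid tissue stroma, at 10.43 against 10.25 in VD pup 4, and for macrophages, at 10.22 against 10.18 in VD pup 4. For B cells it had 9.38, the next after VD pup 11 at 9.48.

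Across the 16 pups, Cd3d had a Pearson r of 0.98 with the mean of Cd3e and Cd3g (Spearman's rho 0.98), and Lck had an r of 0.99 with the mean of the CD3 genes. For Cd5 this r was 0.98, for Cd2 0.95, for Cd28 0.94 and for Cd8a 0.89. When the 2 pups farthest from the median of the CD3 mean were left out, the values were 0.96 for Cd3d, 0.98 for Lck, 0.96 for Cd5, 0.92 for Cd2, 0.85 for Cd28 and 0.69 for Cd8a. Thy1 and Cd4 followed the CD3 genes less closely, with r of 0.62 and 0.28. These correlations describe pups that share litters, slides and the normalization, and carry no p.

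**Figure D3:**
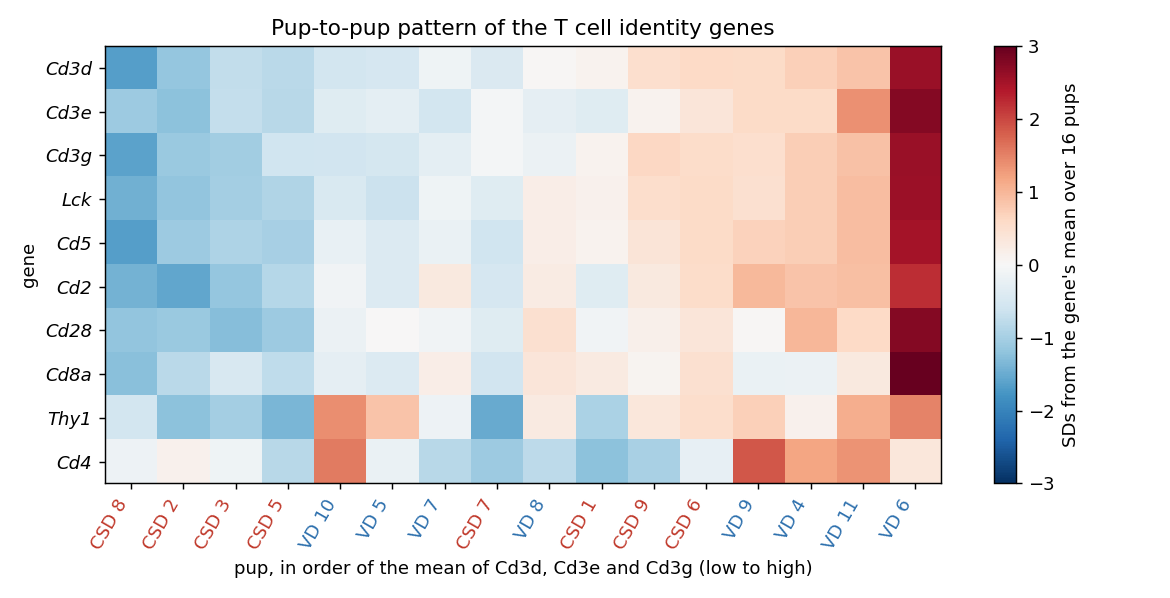
Each gene's log2 intensity in each pup as SDs from that gene's mean over 16 pups (colour), with pups ordered along the horizontal axis by the mean of Cd3d, Cd3e and Cd3g and CSD names in red, VD names in blue. The colours of the upper 8 rows run together from CSD pup 8 at the left to VD pup 6 at the right, while Thy1 and Cd4 in the lowest rows follow another order.

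VD pup 6 weighed on the size of the differences more than on their direction. Without it, 10 of the 10 genes stayed lower in CSD pups, their median log2 fold change was -0.25, 4 had an unadjusted p under 0.05 and none was called, against 0.853% of all genes. The fitted value of Cd3d without this pup was -0.37 ± 0.25 (SE), that of Cd3e -0.16 ± 0.09, that of Cd3g -0.21 ± 0.19 and that of Cd8a -0.07 ± 0.06. That of Cd2 was -0.64 ± 0.22 and that of Thy1 -0.37 ± 0.10. Other single pups also moved the size. Without CSD pup 8 the median of the 10 genes was -0.27 and Cd3d was at -0.36. Without VD pup 4 these values were -0.28 and -0.45. Within each slide the mean of the CSD pups lay under that of the VD pups for 10 of 10 genes, with Cd3d at -0.37 on slide 1 and -0.88 on slide 2, the slide that held VD pup 6, and Thy1 at -0.52 and -0.36.

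Sex and litter gave no calls among the 10 genes. The fitted log2 difference of males minus females was 0.45 ± 0.26 (SE) for Cd2, the largest of the 10, and 2.6e-05 ± 0.04 for Cd4, the smallest, with no p under 0.05 before adjustment, and 0.0599% of all genes were called between the sexes. The fitted level was higher in males for 10 of the 10 genes, with no share over all genes given here. The VD group held 6 males and the CSD group 4, which the fitted values allow for. The permutation p, the overlap counts, the litter order and the group means make no such allowance. The delivery by sex interaction had no p under 0.05 for any of the 10 before adjustment, and 0.00272% of genes were called for it. Between the CSD litters limma called 0 of the 10 (0.0872% of all genes), and none of them reached p under 0.05 before adjustment. Between the VD litters 0 were called (0.874% of all genes), and 2 had an unadjusted p under 0.05: Cd4 was lower in the litter of mother 6 by a log2 value of -0.16 ± 0.05 (SE) and Cd8a was at 0.31 ± 0.14 there. The value of Cd8a rested on VD pup 6, at 7.05 against 6.34 and 6.38 in its litter mates, the latter beside 6.20 to 6.37 in the litter of mother 5. In these comparisons a litter also stands for its foster care, and these cannot be told apart.

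Beyond the 10 genes, the machinery around the receptor was lower in CSD pups for most of its members without passing the test for more than single genes. Of 7 genes for T cell receptor constant regions, found by their descriptions, 7 were lower in CSD pups, 2 had an unadjusted p under 0.05 and 0 were called. The constant region of the T cell receptor beta chain 2, named here after its values were seen, had a log2 level of 9.17 ± 0.65 in the CSD group and 9.84 ± 0.67 in the VD group (mean ± SD, n = 8 each) and a fitted log2 fold change of -0.57 ± 0.32 (SE). The smallest p were those of the delta constant region, at -0.23 ± 0.07 with an adjusted p of 0.127 and above background on 1 array, and of the gamma constant region 4, at -0.19 ± 0.07 with an adjusted p of 0.235 and above background on 15 arrays. Of 11 variable or joining genes found by name, 8 were lower, 0 had an unadjusted p under 0.05, 0 were called and 6 were above background on no array. Trav6-3, at 0.07 ± 0.05, and Tcrg-V1, at -0.09 ± 0.06, had the smallest p among them.

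Of 35 genes of T cell receptor signalling, 28 were lower in CSD pups, the median of the list was -0.13 on the log2 scale, and 1 was called. Nfatc1, a calcium-driven transcription factor of activated lymphocytes, had a positive fitted value, at 0.32 ± 0.08 with an adjusted p of 0.067. Without VD pup 6, 25 of the 35 were lower, with a median of -0.07 and 1 call. In the list of costimulatory and checkpoint receptors 18 of 19 were lower, with a median of -0.13, 0 calls and 5 genes at an unadjusted p under 0.05. Of these 19, 11 were above background on all 16 arrays and 3 on no array. Cd48, the ligand of CD2 in mice and also counted among the ligands, was at -0.41 ± 0.12 (adjusted p 0.122), and Icos, a costimulator of activated T cells, at -0.22 ± 0.08 (adjusted p 0.205). Of 14 ligands that other cells present to the 10 receptors and their relatives, 12 were lower, with a median of -0.16, 0 calls and 5 genes at an unadjusted p under 0.05, Pdcd1lg2 among them at -0.26 ± 0.09 (adjusted p 0.164). In this list 2 genes were above background on no array.

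Of 21 transcription factors of T cell lineages, 15 were lower, with a median of -0.09, and 1 was called, which was higher. Bcl6, the factor of follicular helper T cells and germinal centre B cells that other tissues also express, rose in CSD pups by 0.41 ± 0.09 (SE) on the log2 scale, from a mean of 8.63 ± 0.16 in the VD group to 9.03 ± 0.21 in the CSD group (SD, n = 8 each), with an adjusted p of 0.041. This call held in 14 of 38 alternatives of the processing or the samples, over which the adjusted p ran from 0.0068 to 0.494. Lef1, a factor of naive T cells, was at -0.24 ± 0.07 with an adjusted p of 0.117. Of 24 homing and cytokine receptors, 21 were lower, with a median of -0.16, and 1 was called: Ccr6, the receptor for CCL20 on B cells, Th17 cells and innate lymphoid cells, fell by 0.80 ± 0.18 (SE), with an adjusted p of 0.046 that became 0.070 without VD pup 6. The call of Ccr6 held in 9 of the 38 alternatives, with adjusted p from 0.0020 to 0.565. Itgb7, the integrin chain that takes lymphocytes to the gut, was at -0.37 ± 0.09 with an adjusted p of 0.051. Of 19 genes of CD8 and cytotoxic lymphocytes, 12 were lower, with a median of -0.04, 0 calls and 4 genes at an unadjusted p under 0.05. Without VD pup 6, 8 of the 19 were lower and the median was 0.0089. In this list 3 genes were above background on no array. Gzmc and Fasl had the smallest p of this list, at 0.11 ± 0.04 and -0.11 ± 0.04, with Gzmc above background on no array and Fasl on 4, all of VD pups.

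**Figure D4:**
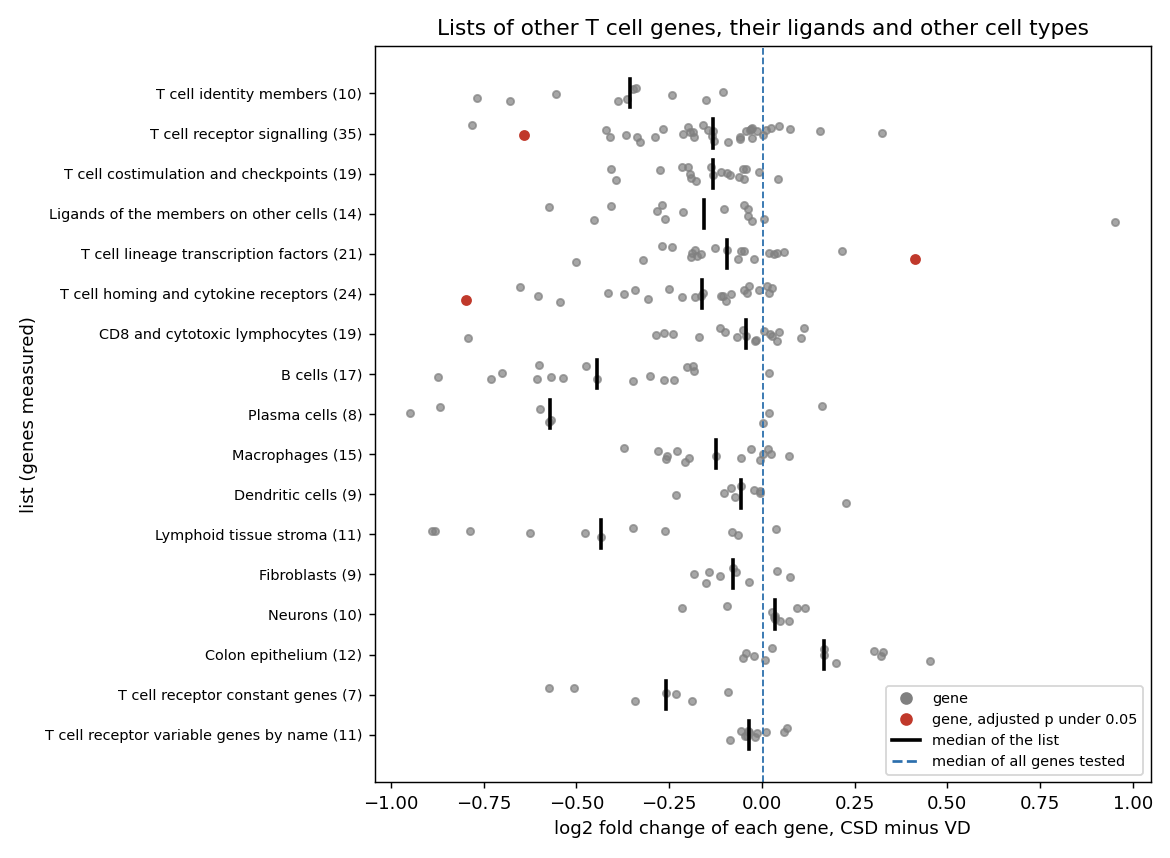
Fitted log2 fold change (horizontal axis, CSD minus VD) of each measured gene in 17 lists, 1 point per gene and red for an adjusted p under 0.05, with the median of each list as a black bar and the median of all genes as a dashed line. The medians of the epithelium and the neurons lie to the right of the dashed line and those of the other 15 lists to its left, several close to it, and 3 genes are red.

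Genes of other cells of the mucosa were measured on the same arrays, and none of those in the lists of other cell types was called. Of 17 B cell genes, 16 were lower in CSD pups, the list's median was -0.45, and 0 were called, with 10 at an unadjusted p under 0.05. Fcer2a, the IgE receptor of mature B cells, was at -0.57 ± 0.15 (adjusted p 0.075), and Cd37 at -0.61 ± 0.17 (adjusted p 0.091). The B cell list was above background on all 16 arrays for 16 of the 17 genes, with Blk as the exception. The mean log2 level of its genes was 8.63 ± 0.31 over the CSD pups and 9.09 ± 0.31 over the VD pups (SD, n = 8 each). Blnk, at 0.02, was the 1 gene not lower. Of 11 genes of lymphoid tissue stroma and organisation, 10 were lower, with a median of -0.43, 0 calls and 6 genes at an unadjusted p under 0.05. Ccl20, the chemokine of the epithelium over follicles, was at -0.89 ± 0.26 (adjusted p 0.103), and Lta, a lymphotoxin needed for lymphoid organs, at -0.35 ± 0.11 (adjusted p 0.125). The mean log2 level of that list was 9.57 ± 0.25 over the CSD pups and 10.003 ± 0.29 over the VD pups (SD, n = 8 each).

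Of 8 plasma cell genes measured, 5 were lower, with a median of -0.57, 0 calls and 5 genes at an unadjusted p under 0.05. Mzb1 was at -0.87 ± 0.29 (adjusted p 0.162) and Tnfrsf17 at -0.57 ± 0.21 (adjusted p 0.189), and the mean log2 level of the list was 9.42 ± 0.43 over the CSD pups and 9.91 ± 0.24 over the VD pups (SD, n = 8 each). Of 15 macrophage genes 11 were lower, with a median of -0.12, and of 9 dendritic cell genes 8 were lower, with a median of -0.06, with 0 calls in either and 4 and 2 genes at an unadjusted p under 0.05. C1qc was at -0.21 ± 0.07 (adjusted p 0.143), Cd68 at -0.26 ± 0.09 (0.180), Itgax at -0.23 ± 0.08 (0.149) and Zbtb46 at -0.08 ± 0.04 (0.318). Of 9 fibroblast genes 7 were lower, with a median of -0.08, Pdgfrb being at -0.15 ± 0.05 (adjusted p 0.189) and Dcn at -0.18 ± 0.09 (0.363). The 10 genes of neurons had a median of 0.03, with Uchl1 at -0.22 ± 0.13 (adjusted p 0.474) and Nefl at 0.12 ± 0.08 (0.517). Of 12 genes of the colon epithelium 9 were higher, with a median of 0.17, 0 calls and 2 genes at an unadjusted p under 0.05, and Slc26a3, a chloride and bicarbonate exchanger of mature colonocytes, was at 0.45 ± 0.13 (adjusted p 0.113), with Epcam at 0.17 ± 0.07 (0.257). The 3 that were lower, Krt8, Krt19 and Lgals4, were at -0.04 ± 0.06, -0.05 ± 0.09 and -0.02 ± 0.03, and the mean log2 level of the list was 14.78 ± 0.14 over the CSD pups and 14.63 ± 0.10 over the VD pups (SD, n = 8 each). The part of these other cells in the values of the 10 genes was not tested.

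Over the 16 pups the mean of each list was set against the mean of the CD3 genes, as a description. Pearson's r was 0.98 for T cell receptor signalling, 0.96 for costimulation, 0.89 for lymphoid tissue stroma, 0.84 for B cells, 0.66 for plasma cells and 0.65 for macrophages. It was 0.16 for fibroblasts, 0.0044 for neurons and -0.49 for the epithelium.

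**Figure D5:**
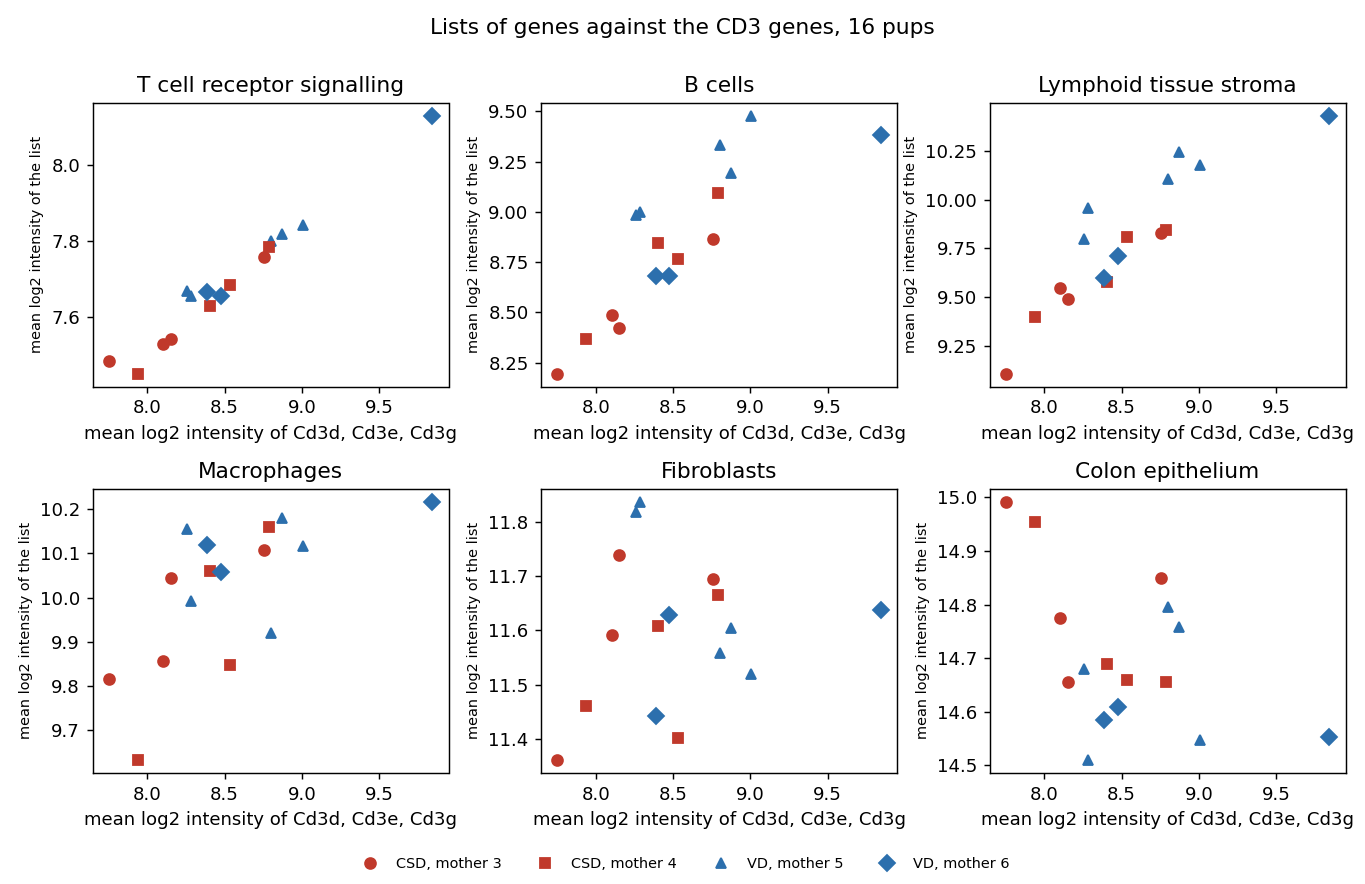
Mean log2 intensity of 6 lists (vertical axes) against the mean of Cd3d, Cd3e and Cd3g (horizontal axes) in the 16 pups, red for CSD and blue for VD, with the litter as the symbol. Pups with a higher CD3 mean have higher means for T cell receptor signalling, B cells and lymphoid tissue stroma, and the panels of fibroblasts and the epithelium lack that slope.

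Among 20526 other genes with a probe above background on every array, the 8 whose pattern over the 16 pups was most like the CD3 mean included the T cell receptor beta constant regions 2 and 1 (Pearson r 0.99 and 0.98), Limd2 (0.97), Tcf7 (0.97), Il27ra (0.97), Zap70 (0.96) and Nlrc3 (0.96). Zap70 is a kinase that acts after LCK, and Tcf7 encodes the T cell factor TCF1. Without the 2 pups farthest from the median the values were between 0.90 and 0.98. Zap70 was at 8.14 ± 0.29 in the CSD group and 8.63 ± 0.41 in the VD group (mean ± SD, n = 8 each), with a fitted log2 fold change of -0.42 ± 0.17 (SE) and an adjusted p of 0.246. Limd2 was at -0.51 ± 0.21, Tcf7 at -0.19 ± 0.12, Il27ra at -0.35 ± 0.21 and Nlrc3 at -0.09 ± 0.05, and none of the 8 was called.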

How the data were processed

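Colon RNA of 8 CSD and 8 VD pups was hybridised on 1-colour Agilent arrays, and groups, mothers, sexes and pup numbers were taken from the labels. The deposited scanner output holds, for every spot, a mean intensity, a median background intensity and an intensity processed by the scanner software. A deposited gene matrix holds 27036 genes as log2 values, made by the authors with limma 3.38 after they had corrected the background, quantile normalized the arrays, removed dim probes and averaged the probes of each gene. The matrix was used as an alternative, and its arrays had a correlation of 0.977 with the values computed here over 27022 shared genes.

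Mean intensities of all 62976 spots were corrected with normexp (offset 50) against the background intensity with limma 3.58.1 in R 4.3.3, since the methods do not name their correction. Control spots and spots marked as outliers were left out, log2 values were quantile normalized, and replicate spots were averaged. A probe was kept if it exceeded the 0.05 quantile of an array on 4 or more arrays (56366 of 56605 probes), and the kept probes were averaged by gene name. The model held fixed effects of delivery mode and sex, with the mother as random effect (duplicateCorrelation, consensus correlation 0.0152), with Benjamini-Hochberg adjustment over all 36711 genes. The same tool gave sex, the interaction of delivery and sex, and the litters within a delivery mode (litter and sex fixed). Permutation tests were exact and two-sided. Each of the 2 slides carried 4 arrays per group, and slide was tried as a block. On simulated log2 gene values, which left out the background correction, normalization and filter, the fit recovered the changes put in. With pups simulated as independent, the random mother gave more false calls than its nominal rate. The litter correlation estimated there was negative, unlike the 0.0152 found here, and whether the excess carries over was not tested. Calls near the threshold need care. The number of arrays and litters limits the precision.

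All 10 T cell identity genes are described. From the other lists, the called genes and the 2 with the smallest p are named, except for some items that are not reported here, and the genes most like the CD3 mean were taken among genes with a probe above background on every array. Blk, Blnk, Krt8, Krt19, Lgals4 and Cd8b1 and the beta constant region 2 were named after their values were seen. The members and the lists were chosen with earlier results of these data known, and neither supports a direction on its own. Fits by probe, list counts without VD pup 6 and the constant regions of the T cell receptor were added after the data were seen. Probe positions and sequences are those of the scanner output (mm9), and upstream sequences are from RefSeq (GRCm38.p6). Signals of different probes are not compared with each other. Levels are in log2 units of intensity throughout.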

Additional observations from a re-analysis of the deposited data

Results flagged for a closer look

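VD pup 6 stood apart from the other 7 VD pups in 5 of the 10 genes, its distance to the next VD pup being a larger part of the range of the VD group than the 95% critical value of Dixon's test for 8 samples. Its log2 level was 10.62 for Cd3d, 9.34 for Cd3g, 10.15 for Cd5, 7.05 for Cd8a and 8.17 for Cd28. Chance alone gives such a mark in about 1 of 20 groups, and the 5 genes vary together from pup to pup, so that the 5 marks are not independent. The gap was 0.552 of the range for Cd3d, 0.545 for Cd3g, 0.541 for Cd5, 0.788 for Cd8a and 0.601 for Cd28. No CSD pup was marked for any of the 10 genes.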

How the results depend on the processing

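Across 38 alternatives the 10 genes stayed lower in CSD pups wherever they were measured (379 of 379 fits, Cd8a being lost where only probes above background were kept), and 7 of these fits were called, 6 for Thy1 and 1 for Cd4. The median of the 10 genes lay between -0.49 and -0.23 in these alternatives, against -0.36 as reported. The number of the 10 genes called, 0 as reported in limma with 5 at an unadjusted p under 0.05, was 1 without the mother in the model, 1 without sex in the model and 2 (Thy1 and Cd4) without the litter of mother 6, and ran from 0 to 1 when single pups were left out. The number of the 10 genes at an unadjusted p under 0.05 in limma was 1 in males only, 1 without the litter of mother 3 and 8 without sex. When single pups were left out, that number ran from 2 (without VD pup 4) to 6. Bcl6 stayed called in 14 and Ccr6 in 9 of 38 alternatives, each with the same direction in all 38. The number of genes called over the whole array, 460 as reported, was 102 and 243 with normexp offsets of 0 and 16, 177 and 164 with the processed signal after quantile or 75th percentile scaling, 170 in the deposited matrix, 992 without sex, 0 with litter means as samples, 0 in males only, 11 on slide 1 alone and 0 on slide 2 alone, with 4034, 3295 and 3789 genes at an unadjusted p under 0.05 in the limma fits that called 0. It was 212, 138, 189 and 2265 without the litters of mothers 3, 4, 5 and 6, and between 145 and 617 without single pups. The cause of these shifts was not tested.

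The replicate block, with the number in the titles as a block for the 5 numbers that occur in both groups, called 0 genes (3581 at an unadjusted p under 0.05) and 0 of the 10, with a median of -0.34 for the 10. The numbers name pups of different mothers, and their deviations correlated between -0.05 and 0.22. Both pups of a number were of the same sex, female for number 5 and male for the others. Those of number 6 and those of number 7 also shared a slide. The block therefore also takes up sex and in part slide.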

Other observations

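H2-Eb1, which encodes the beta chain of the MHC class II molecule I-E and was described only as part of the list of ligands, had values that fell into 2 separate levels, a pattern noticed after its values were seen. In 7 pups its log2 level lay between 10.16 and 10.84 (VD pups 4, 5, 6, 7 and 9 and CSD pups 7 and 9), and in 9 pups between 13.31 and 14.71. Both levels occurred in each of the 4 litters, with SDs within a litter from 1.74 to 2.22. Its fitted log2 fold change was 0.95 ± 0.95 (SE), with an adjusted p in limma of 0.710. H2-Aa and H2-Ab1, chains of the class II molecule I-A, had no such gap: H2-Aa ran from 10.08 to 11.75 in CSD and from 11.12 to 12.06 in VD pups, and H2-Ab1 from 12.41 to 13.57 and from 13.06 to 13.89.

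Cd8b1 ran from 6.93 to 8.32 in CSD pups (median 7.24) and from 7.56 to 10.09 in VD pups (median 8.12).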
